A study of Drosophila melanogaster with 2 samples.

Results

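The stretches described here are places on the Drosophila melanogaster genome where the authors' optimal peak list holds overlapping intervals, so that 1 continuous stretch carries more than 1 peak summit (the base of highest signal in an interval). On build dm6, intervals of the 6 main arms (X, 2L, 2R, 3L, 3R and 4) that overlapped another interval by at least 1 bp were merged. Of the 7184 intervals, 2095 fell into 1036 such stretches and 5089 stood alone, which gave 6125 separate regions in all. 1014 stretches held 2 summits, 21 held 3 and 1 held 4. The members were chosen by the overlap of the deposited intervals, so widths, spacings and signals of the stretches are given as descriptions and were not tested.

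The study mapped the chromatin binding of the protein encoded by CG7556 by chromatin immunoprecipitation and sequencing (ChIP-seq). The flies came from a transgenic line in which GFP is joined to the C-terminal end of CG7556, and an anti-GFP antibody was used on whole embryos of both sexes, 0 to 24 h old. The labels number 2 biological replicates, both of the same group, and there was no second condition, so every value is an average over all embryonic cell types and ages. The immunoprecipitation control was not analysed here, and read depth is unknown because the deposited lists hold no read counts.

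In ChIP-seq, fragments of sheared chromatin pile up around a protein that was crosslinked to DNA, and a summit marks where the pile is highest. A stretch of open chromatin can carry more than 1 bound site, as regulatory regions of developmental genes often do, and promoters placed head to head share such a stretch between a pair of genes. A peak caller can also report more than 1 summit on a broad pile. In flies, promoters and enhancers are places where nucleosomes are depleted, and stiff runs of A and T, which wrap poorly around histones, are common in such DNA.

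The sequences of 7 of the 10 stretches with the highest signal are shown because they hold the summits and, where the summits lie close together, the DNA between them. They were read on the plus strand from the RefSeq Release 6 assembly, whose coordinates are those of dm6. Capitals mark the 21 bases centred on each summit in the window, and in windows with 2 summits the stronger one comes first. The windows are chr3R:17700561-17700860 in osa beside lncRNA:CR46036, chr3L:10682929-10683228 in an intron of simj, chr2L:3302140-3302439 in an intron of CG9663, chr2L:3355047-3355346 upstream of E23 and chrX:1275455-1275754 upstream of Atf3.
lncRNA:CR46036: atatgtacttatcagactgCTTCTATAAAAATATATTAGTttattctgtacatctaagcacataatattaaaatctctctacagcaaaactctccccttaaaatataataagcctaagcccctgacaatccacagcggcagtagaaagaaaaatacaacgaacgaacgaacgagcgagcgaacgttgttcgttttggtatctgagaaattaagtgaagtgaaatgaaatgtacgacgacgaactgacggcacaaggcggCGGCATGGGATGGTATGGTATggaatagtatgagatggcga
simj: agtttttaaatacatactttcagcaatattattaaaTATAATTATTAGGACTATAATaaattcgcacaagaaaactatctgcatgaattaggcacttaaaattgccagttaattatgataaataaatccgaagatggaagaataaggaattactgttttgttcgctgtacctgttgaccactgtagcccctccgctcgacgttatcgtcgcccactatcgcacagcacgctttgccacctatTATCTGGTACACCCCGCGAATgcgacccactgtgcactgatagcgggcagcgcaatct
CG9663: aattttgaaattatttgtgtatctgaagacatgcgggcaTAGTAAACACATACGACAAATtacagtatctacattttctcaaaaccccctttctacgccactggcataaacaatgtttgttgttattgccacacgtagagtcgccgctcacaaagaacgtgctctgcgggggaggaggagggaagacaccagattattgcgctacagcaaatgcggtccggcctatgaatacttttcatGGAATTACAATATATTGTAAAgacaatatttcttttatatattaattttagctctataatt
E23: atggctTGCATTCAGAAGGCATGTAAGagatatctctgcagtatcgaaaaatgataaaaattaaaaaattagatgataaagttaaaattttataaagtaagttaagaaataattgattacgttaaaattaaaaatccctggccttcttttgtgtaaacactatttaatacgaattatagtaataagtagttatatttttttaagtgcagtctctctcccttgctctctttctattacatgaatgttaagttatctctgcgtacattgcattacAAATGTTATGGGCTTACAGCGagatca
Atf3: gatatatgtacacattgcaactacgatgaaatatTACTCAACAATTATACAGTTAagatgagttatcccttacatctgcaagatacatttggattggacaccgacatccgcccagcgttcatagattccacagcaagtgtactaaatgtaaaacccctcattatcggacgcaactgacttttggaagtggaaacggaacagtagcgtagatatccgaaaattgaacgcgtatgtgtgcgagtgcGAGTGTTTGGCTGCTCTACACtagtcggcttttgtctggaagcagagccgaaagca

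In the window at lncRNA:CR46036 the 50 bp centred on the stronger summit had 26% GC, the 50 bp midway between the summits had 44% and the 50 bp at the weaker summit had 54%. In the simj window the same 3 values were 20%, 38% and 58%, and in the Atf3 window they were 30%, 42% and 50%. All 3 therefore run from an AT-rich stronger summit to a GC-richer weaker one. The other windows differed. In the E23 window the values were 38%, 28% and 44%, so the most AT-rich of the 3 places was between the summits. In the CG9663 window they were 38%, 60% and 20%, so the weaker summit was the AT-rich one.

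A pair of stretches in this group had summits far enough apart to be shown in windows of their own. One is in ush beside cbt, with windows chr2L:481026-481175 and chr2L:479956-480105. The other is beside lncRNA:CR44619, with windows chrX:12751252-12751401 and chrX:12752269-12752418.
cbt stronger: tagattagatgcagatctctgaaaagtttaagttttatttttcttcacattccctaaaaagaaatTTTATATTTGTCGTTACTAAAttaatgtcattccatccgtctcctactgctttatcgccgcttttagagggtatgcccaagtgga
cbt weaker: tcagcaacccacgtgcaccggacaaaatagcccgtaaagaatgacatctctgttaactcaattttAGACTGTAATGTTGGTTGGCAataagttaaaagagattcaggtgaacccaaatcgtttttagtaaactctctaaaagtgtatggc
lncRNA:CR44619 stronger: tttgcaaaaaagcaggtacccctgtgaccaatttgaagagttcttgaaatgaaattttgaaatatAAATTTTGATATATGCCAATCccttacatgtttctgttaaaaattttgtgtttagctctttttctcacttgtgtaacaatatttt
lncRNA:CR44619 weaker: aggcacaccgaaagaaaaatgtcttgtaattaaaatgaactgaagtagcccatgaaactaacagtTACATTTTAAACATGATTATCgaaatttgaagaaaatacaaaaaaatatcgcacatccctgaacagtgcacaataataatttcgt

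At the cbt stretch the 50 bp at the stronger summit had 24% GC and those at the weaker had 30%. At the lncRNA:CR44619 stretch both had 24%. The 50 bp at each of these widely spaced summits were thus AT-rich.

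The stretch with the highest signal lay in an intron of ush, which encodes a Friend-of-GATA cofactor, and next to cbt, which encodes a zinc-finger transcription factor. Its stronger summit, 1413 bp upstream of the nearest cbt start site, had a deposited signal of 4859 in the pooled list, 2637 in replicate 1 and 2239 in replicate 2. The second summit lay 1070 bp away, 343 bp upstream of cbt, and had a signal of 1369 in the pooled list, 751 in replicate 1 and 662 in replicate 2. Both replicates put the 2 summits in the same order, and this was the widest spacing of any neighbouring pair. The sources used here do not state the scale of the signal, and the values are compared only within a list.

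The next stretch by signal was also the widest, at 2065 bp, and held 3 summits around the long non-coding RNA genes lncRNA:Vinr and lncRNA:CR44619 on the X. Its strongest summit had a signal of 3755 in the pooled list, 1953 in replicate 1 and 1781 in replicate 2. The second, 1017 bp away, had 2018 in the pooled list, 1062 in replicate 1 and 963 in replicate 2. The third lay 218 bp beyond the second with a pooled signal of 158.

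The other 8 stretches among the 10 with the highest signal had 2 summits each, 200 to 267 bp apart. Their stronger summits had pooled signals between 2162 at Drat and 2930 at Tina-1. At simj, which encodes a subunit of the nucleosome remodelling and deacetylase complex, the stronger summit had 2434 in the pooled list, 1282 in replicate 1 and 1162 in replicate 2. The weaker summit of simj had 1275 in the pooled list, 553 in replicate 1 and 545 in replicate 2. At Atf3, a gene for a basic leucine zipper factor, the stronger summit had 2192 in the pooled list, 1133 in replicate 1 and 1066 in replicate 2. The weaker summit of Atf3 had 357 in the pooled list and 249 in replicate 2, and no summit of replicate 1 lay within 100 bp of it. E23, the gene of an ecdysone-induced transporter, was alike in that its weaker summit, with a pooled signal of 396, was matched in replicate 2 alone, at 145.

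**Figure D1:**
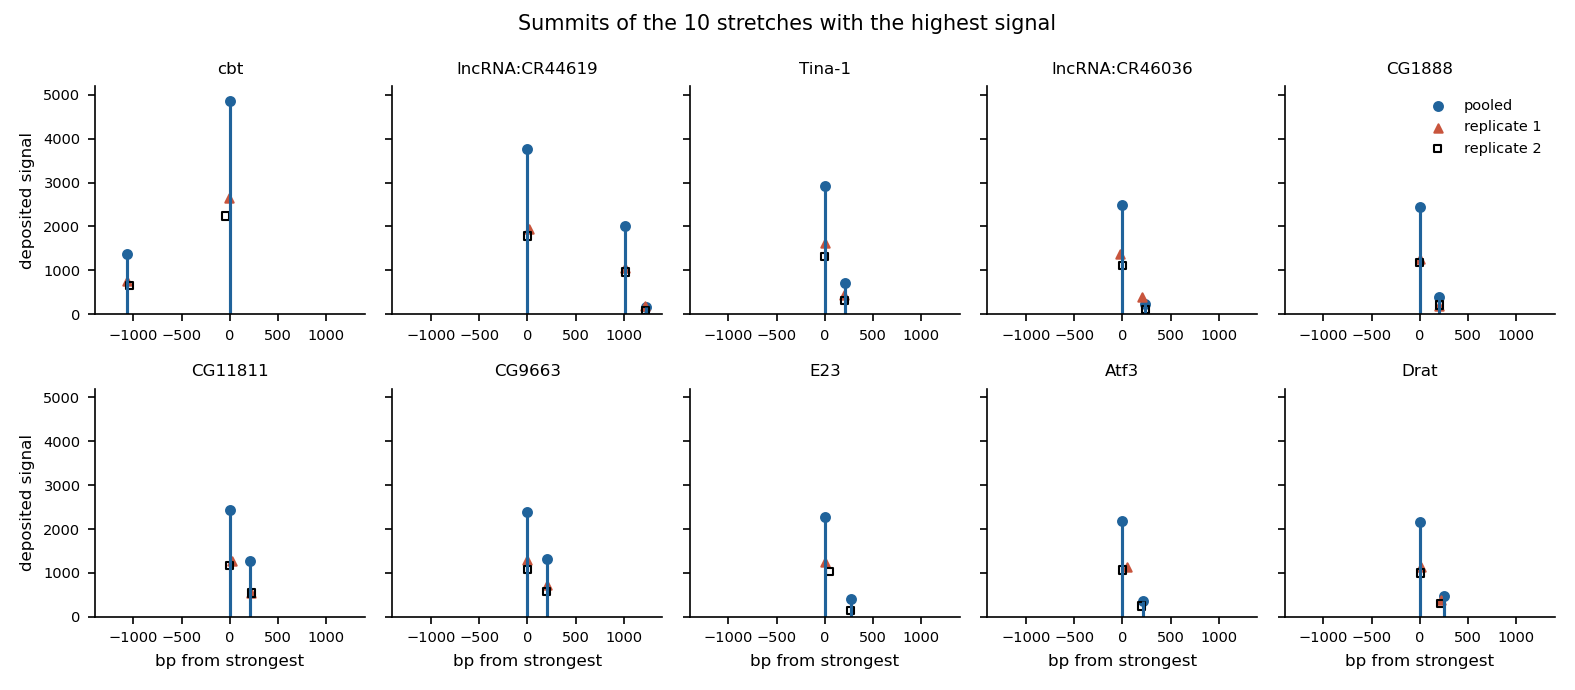
Deposited signal (vertical axis, scale not stated) of each summit of the 10 stretches with the highest signal, against its distance in bp from the strongest summit, titled by the gene with the nearest start site (CG11811 is the stretch in simj). Filled circles and lines are the pooled list, triangles are replicate 1 and open squares are replicate 2; cbt and lncRNA:CR44619 have summits over 1000 bp apart and the other 8 have them within 270 bp.

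Almost all summits of a stretch lay about 200 bp apart. The 1059 neighbouring pairs had a lowest spacing of 199 bp, a lower quartile of 201 bp, a median of 203 bp and an upper quartile of 210 bp. 799 pairs (75.4%) were at most 210 bp apart and 985 (93.0%) at most 250 bp. 54 pairs (5.10%) lay over 250 and up to 500 bp apart, and 20 (1.89%) lay further apart than that.

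The lower end of this range was the same in every deposited list. No pair of summits lay closer than 199 bp in either replicate, in the pooled list or in the optimal list, on dm6 or on dm3. Over all 7178 neighbouring summits of the optimal list, 1080 were closer than 300 bp, 65 were 300 to under 700 bp apart and 352 were 700 to under 1100 bp apart. Close summits and separate regions thus form distinct groups with few pairs between them. No source used here names the peak caller, and whether one of its settings fixes the lowest spacing was not tested.

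**Figure D2:**
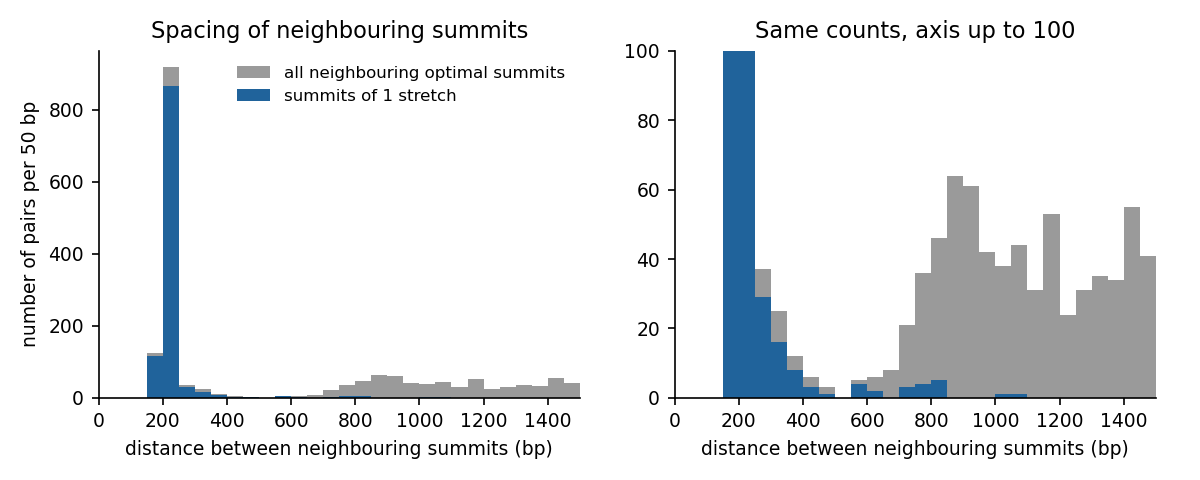
Number of neighbouring summit pairs of the optimal list per 50 bp of distance, for all neighbours on an arm (grey) and for neighbours within 1 stretch (blue); the right panel repeats the left with its axis ending at 100 pairs. The pairs of the stretches pile up near 200 bp, few pairs of any kind lie between 300 and 700 bp, and most separate regions lie beyond that.

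The stretches had a median width of 612 bp, with quartiles of 527 and 716 bp and a range of 250 to 2065 bp. Single regions had a median width of 449 bp, with quartiles of 278 and 556 bp. Together the stretches covered 0.658 Mb and the single regions 2.15 Mb. In 392 stretches all intervals had identical ends, so that the summit position and its signal told them apart. The most frequent width, 556 bp, was that of 437 intervals in stretches (20.9%) and of 1819 single regions (35.7%).

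The requirement of 1 bp of overlap drew a thin line. Just inside it, a stretch at spi with summits 200 bp apart was joined by an overlap of 1 bp, with signals of 313 and 214, and another at peng with summits 213 bp apart also overlapped by 1 bp. Just outside it, intervals at SNF4Agamma with summits 202 bp apart, with signals of 308 and 146, met end to end and did not count as a stretch. Intervals at aos, the gene of an EGF receptor antagonist, with summits 199 bp apart were kept apart by a gap of 1 bp. In all, 61 pairs of optimal summits within 250 bp of each other did not overlap and so were not joined.

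The strongest summit of a stretch had a median signal of 451, with quartiles of 307 and 715. The weaker summits had a median of 207, with quartiles of 164 and 290, and single summits had a median of 231, with quartiles of 171 and 350. The second summit had a median of 0.523 of the signal of the strongest, with quartiles of 0.365 and 0.720, and in 49 stretches it reached at least 0.9. The lowest ratio was 0.0788 and the highest 0.997, at ftz-f1, a nuclear receptor gene.

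The share of regions with several summits rose from each signal decile to the next, although intervals of neighbouring deciles overlap over much of the range. Among the 613 regions with the lowest signal 2 held several summits (0.326%, 95% exact interval 0.0395 to 1.17%). Among the 613 with the highest signal 262 did (42.7%, 38.8 to 46.8%). A second summit had to pass the threshold of the list by itself, and the lowest signal of any weaker summit was 137. In the pooled list before the threshold, 2727 of the 5089 single regions (53.6%, 52.2 to 54.96%) had a further summit within 250 bp, at a median of 0.265 of the signal of the single summit. The boundary between single regions and stretches is therefore partly the boundary of the list.

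**Figure D3:**
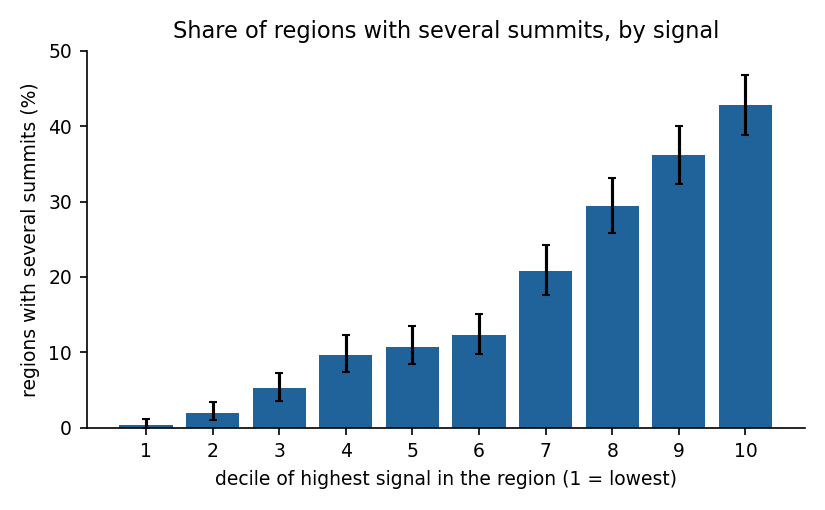
Share of regions that hold several summits (vertical axis, percent) in each decile of the 6125 regions ordered by their highest signal, with 95% exact binomial intervals as error bars. The share goes from 0.326% in the lowest decile to 42.7% in the highest.

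The replicates were pooled to make the optimal list, so their own lists describe how stable each stretch was and give no independent support. A summit counted as found when a summit of the replicate's list lay within 100 bp. All summits of a stretch were found in replicate 1 for 928 of 1036 stretches (89.6%), in replicate 2 for 913 (88.1%) and in both for 821 (79.2%, 76.6 to 81.7%). Among the 806 stretches with 2 summits that were found whole in both, the same summit was the stronger one in both replicates in 796 (98.8%). The median spacing of these pairs was 203 bp in each replicate, and in 695 (86.2%) it was within 20 bp of the pooled spacing in both. This agreement was largely set beforehand, because no list had a spacing under 199 bp. Of all neighbouring summits under 300 bp apart, 68.8% in replicate 1 and 64.6% in replicate 2 were at most 210 bp apart. It therefore says little about how stable the stretches were. In the 806 stretches, the weaker summit had a median of 0.444 of the stronger signal in replicate 1, 0.466 in replicate 2 and 0.484 in the pooled list.

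Strongest summits of stretches were found in both replicates less completely, at 88.4% (86.3 to 90.3%), than single summits, at 96.4% (95.8 to 96.9%). Of the 54 stretches of 2 summits whose stronger summit had no match in replicate 1, 50 had a summit of that replicate between the pooled summits. In replicate 2 this held for 56 of 68. A replicate that did not return the stronger summit thus mostly placed a summit inside the pair.

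The side on which the weaker summit lay was looked up in each replicate. For each stretch with 2 summits, the point at the same distance on the other side of the stronger summit served as a mirror position. Replicate 1 had a summit within 100 bp of the weaker summit in 964 of 1014 stretches (95.1%) and within 100 bp of the mirror position in 9 (0.888%, 0.407 to 1.68%). Replicate 2 had 956 (94.3%) and 17 (1.68%, 0.980 to 2.67%). Both replicates entered the pooled list that chose the side. A stretch with an optimal summit at the mirror position as well would hold 3 summits and was not counted here. The low counts at mirror positions thus follow in part from the choice of stretches.

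**Figure D4:**
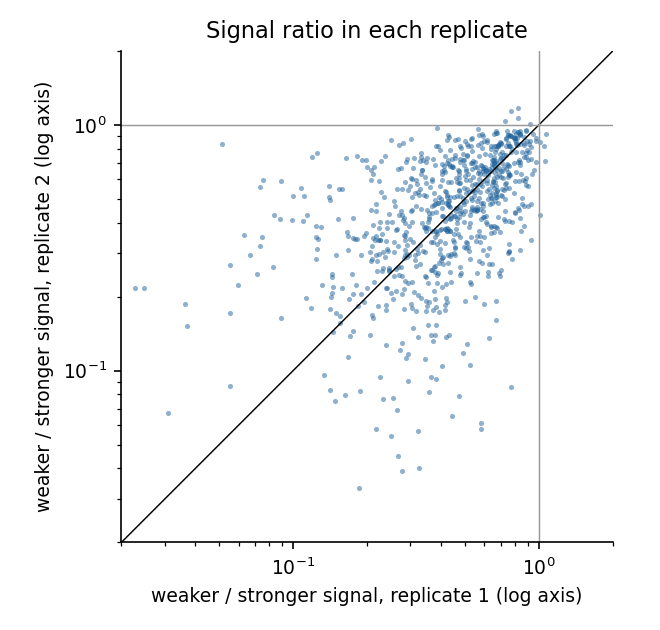
Signal of the weaker summit divided by that of the stronger summit, in replicate 1 (horizontal, log axis) and in replicate 2 (vertical, log axis), for the 806 stretches of 2 summits found whole in both replicates. The diagonal marks equal ratios and grey lines mark a ratio of 1; nearly all points lie below 1 on both axes, and 796 of 806 have the same stronger summit in both.

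DNA sequence was not used in choosing the members, and it set the summits apart. In the 200 bp centred on the strongest summit of a stretch the median GC content was 31.0%, with quartiles of 26.9 and 35.5%, where the 6 arms as a whole have 42.2%. At weaker summits the median was 39.5% and at mirror positions 45.5%. Single summits had 32.5%, and positions 203 bp to either side of them had 44.0%. Strongest summits were thus about as AT-rich as single ones, and weaker summits lay between a summit and its flank.

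Within stretches, the stronger summit had the lower GC content in 801 of 1014 (79.0%, 76.4 to 81.5%), by a median of 8.5 percentage points. The weaker summit had a lower GC content than its mirror position in 683 (67.4%, 64.4 to 70.2%), and the median difference was 5 percentage points. When the stretches were turned so that the weaker summit lay to the right, the run of DNA with a mean GC content under 35% reached from 75 bp on the left of the stronger summit to 125 bp on its right, 200 bp in all. Around single summits this run reached 75 bp to each side, 150 bp in all, and it had the same length when single regions were weighted to the signal of the stretches. In these mean profiles the run was longer for stretches, and it was longer on the side of the weaker summit. Single regions were not turned, so a run longer to the left or to the right would be averaged over both sides. The profiles are means and do not give the length of AT-rich DNA in each region. They therefore do not show whether single regions lack such a longer side. ChIP-seq read numbers can themselves depend on GC content, and the part of this in the result was not tested.

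The DNA between the summits was described for close and wide pairs apart, without a test. In the 965 stretches of 2 summits at most 250 bp apart, the median GC content of 100 bp was 28% at the stronger summit, 31% midway and 41% at the weaker. The midway bases had a lower GC content than the weaker summit in 740 of them. In the 49 stretches of 2 summits further apart it was 33% at the stronger summit, 43% midway and 40% at the weaker, and the midway bases were lower in 20. In the medians, the midway bases of close pairs were thus nearer to the stronger summit in GC content, and those of wide pairs nearer to the weaker one. Single pairs went either way, as the CG9663 pair, 200 bp apart and GC-rich midway, and the E23 pair, 267 bp apart and AT-rich midway, show above.

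**Figure D5:**
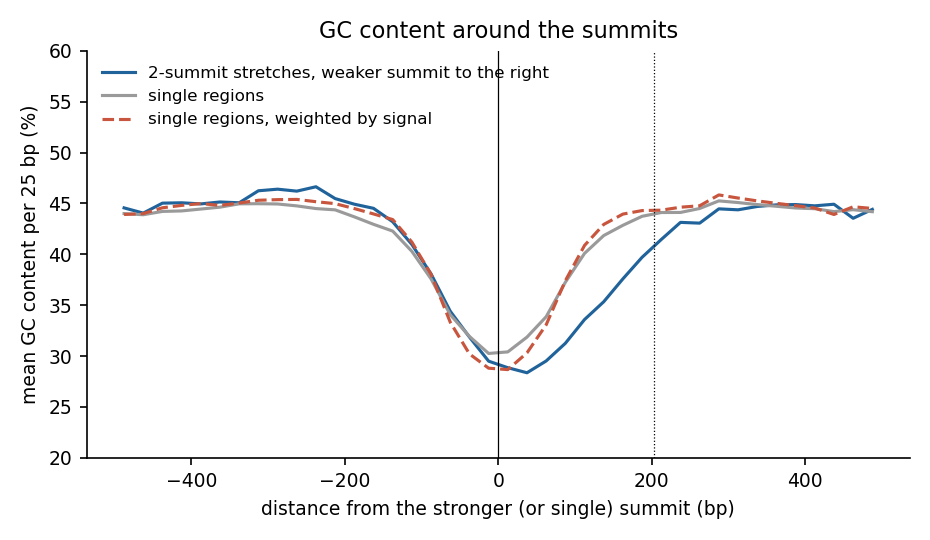
Mean GC content (vertical axis, percent, from 20 to 60) against the distance in bp from the stronger summit of the 1014 stretches with 2 summits, turned so that the weaker summit lies to the right (blue), and from the summit of single regions, as they are (grey) and weighted to the signal of the stretches (dashed). The dotted line marks the median spacing of 203 bp; the blue line stays low to the right of the summit, at 33.6% where the same distance on the left has 41.0%.

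Of 11 short words counted on either strand in 100 bp to either side of a summit, the one most frequent at strongest summits was TATAAA. It was in 45.1% of these windows (42.0 to 48.2%), in 29.1% at weaker summits, in 17.7% at mirror positions, in 41.5% at single summits (43.4% when weighted to the signal of the stretches) and in 19.9% in the flanks of single summits. The word GAGAG, which the GAGA factor recognises, was least frequent at strongest summits and most frequent at mirror positions. It was in 17.9% of windows at strongest summits, 29.9% at weaker summits, 36.3% at mirror positions, 19.4% at single summits and 28.8% in the flanks. CAGCTG, an E-box, was in 5.02%, 12.1%, 13.7%, 6.94% and 11.1% of the same 5 kinds of window. The GC content of these windows differed as given above, and its part in the shares was not tested. A match is a word in a window and not a bound site. In the windows printed above, TATAAA was found once each at the stronger summits of cbt and lncRNA:CR44619, in the lncRNA:CR46036 window and in the CG9663 window. In the E23 window it had 2 matches, which overlap at the same place on opposite strands.

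Promoters held 500 of the 1036 strongest summits (48.3%, 45.2 to 51.4%), counted within 500 bp of an annotated start site. Weaker summits were there in 44.9% and single summits in 38.1% (36.8 to 39.5%). Introns held 34.1% of strongest and 41.9% of single summits, and intergenic DNA held 15.3% and 17.6%. No strongest summit lay in a coding exon outside promoters (0 of 1036, upper bound of the exact interval 0.355%). Of the weaker summits 3 of 1059 did, and of the single summits 8 of 5089. With promoters counted within 200 bp the order turned, with 22.8% of strongest and 24.3% of single summits. Single regions weighted to the signal of the stretches had a promoter share of 46.8%, inside the interval of the strongest summits. Within signal classes the gap differed in size. In the highest signal quartile of all regions, the shares were 53.3% (49.1 to 57.4%) for strongest summits and 54.2% (50.9 to 57.3%) for single regions. In the next quartile they were 41.2% and 37.6%, with overlapping intervals. In the second-lowest quartile they were 42.8% (34.6 to 51.2%) and 33.3% (30.8 to 35.8%), again with overlapping intervals. In the lowest quartile, 13 of 26 strongest summits (29.9 to 70.1%) and 32.7% of single regions (30.4 to 35.2%) were at promoters.

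Far from genes, in 287 stretches (27.7%, 24.996 to 30.54%) every summit lay over 2000 bp from a start site. Of single regions, 38.9% lay that far out as they were, and 30.5% when weighted to the same signal. The rule was stricter for stretches, because all their summits had to meet it, and this by itself lowers their share. The share for strongest summits alone is not given, so these values do not show whether stretches lay far from genes less often. The stretches of this kind with the highest signal were in simj, with 2434, in Gug, which encodes the corepressor Atrophin, with 1886, in tara, which encodes a transcriptional cofactor, with 1842, in sbb, another corepressor gene, with 1756, and 3345 bp from CycB, the gene of a mitotic cyclin, with 1694. In each of these 5 another summit lay 200 to 211 bp from the strongest.

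At tara the stretch held 3 summits in an intron. The strongest had a signal of 1842 in the pooled list, 1002 in replicate 1 and 872 in replicate 2. The next by signal lay furthest away, 720 bp beyond the middle summit, with 1463 in the pooled list, 833 in replicate 1 and 704 in replicate 2. The middle one, 211 bp from the strongest, had 1085 in the pooled list and 478 in replicate 2, and replicate 1 had no summit within 100 bp of it.

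At promoters that run in 1 direction the summits mostly lay upstream. In the 328 such stretches with 2 summits, the stronger summit was at a median of 234 bp upstream of the start site, with quartiles at 328 and 112 bp upstream, and the weaker at 290 bp upstream. Single summits at such promoters (1261) were at a median of 160 bp upstream, or 191 bp when weighted to the signal of the stretches. The weaker summit lay further upstream than the stronger in 208 stretches (63.4%, 57.9 to 68.6%) and on the side of the gene in 120. The start site itself lay between the summits in 29 (8.84%). An example with both summits upstream is spi, the gene of the main EGF receptor ligand, with summits at 178 and 397 bp upstream and signals of 1332 and 612.

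Start sites on both strands were near the summit in 166 of the 500 strongest summits at promoters (33.2%, 29.1 to 37.5%), against 678 of 1939 single summits (34.97%, 32.8 to 37.1%). These intervals overlap. The nearest start site was that of a non-coding gene in 37 of the 500 (7.40%, 5.26 to 10.1%) and in 8.35% of the single summits.

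In 131 stretches (12.6%) the summits had different genes as their nearest, and 114 of these were divergent promoters with every summit within 500 bp of a start site. RpS27, the gene of a small ribosomal subunit protein, and Nup37, the gene of a nuclear pore protein, shared such a stretch. The summit 12 bp upstream of RpS27 had a signal of 823 in the pooled list, 362 in replicate 1 and 454 in replicate 2. The summit 199 bp away, at Nup37, had 491 in the pooled list, 240 in replicate 1 and 221 in replicate 2. RpL28 and eIF1, genes of a large ribosomal subunit protein and of a translation initiation factor, had a more even pair, with 543 and 434 in the pooled list, 224 and 153 in replicate 1 and 325 and 266 in replicate 2. In both stretches each replicate gave the same order.

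CG7556, the gene of the tagged protein, had a stretch of this kind, shared with the neighbouring gene CG7453. Its stronger summit, 170 bp upstream of CG7556, had a signal of 756 in the pooled list, 432 in replicate 1 and 326 in replicate 2. The weaker summit, 200 bp away and 27 bp inside CG7453, had 298 in the pooled list, 72.1 in replicate 1 and 101 in replicate 2. The bases around the stronger summit, chrX:19179851-19180150, are shown because they lie upstream of the tagged gene; they had 27.7% GC.
CG7556: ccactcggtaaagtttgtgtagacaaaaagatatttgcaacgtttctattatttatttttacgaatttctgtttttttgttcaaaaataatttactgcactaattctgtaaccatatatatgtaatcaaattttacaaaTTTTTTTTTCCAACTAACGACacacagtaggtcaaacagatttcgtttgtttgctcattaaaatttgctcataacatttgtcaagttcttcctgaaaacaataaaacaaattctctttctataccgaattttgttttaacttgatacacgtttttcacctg

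By genes, 687 of the 13945 annotated protein-coding genes (4.93%) had a summit of a stretch within 500 bp of a start site. Among the 2939 protein-coding genes with any optimal summit there, these 687 were 23.4%. The gene lists are read against both shares, and because a few genes stand behind each count they are descriptions. The lists count stretches at start sites alone, so a stretch further inside the body of a gene is left out.

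Genes of insulator and promoter-binding proteins had a stretch in 5 of 19, out of 10 with any summit. They were Cp190, lola, M1BP, Dref and BEAF-32, whose proteins bind promoters or chromatin domain borders. The stretch at Dref is also counted for RpL13 among the ribosomal protein genes. At BEAF-32 the stronger summit lay nearest to the start site of asRNA:CR42254. At Cp190 the summit 124 bp upstream had a signal of 1466 in the pooled list, 762 in replicate 1 and 693 in replicate 2. Its second summit, 214 bp away near CG4338, had 191 in the pooled list and 118 in replicate 1, with no match in replicate 2. At M1BP the stronger summit had 1068 in the pooled list, 561 in replicate 1 and 503 in replicate 2. The weaker one of M1BP, 241 bp away near CG8202, had 171 in the pooled list, less than the 233 in replicate 1 and the 190 in replicate 2, which come from lists of their own whose scaling is not stated.

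Cytoplasmic ribosomal protein genes had a stretch in 15 of 87 (17.2%). Of the 58 with any optimal summit this was 25.9%, near the 23.4% of all protein-coding genes with a summit. The highest were RpS27, RpL19 and RpL28, at 823, 597 and 543.

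Among signalling genes, the Notch list had a stretch in 3 of 20, out of 8 with any summit. These were E(spl)m7-HLH and E(spl)mdelta-HLH, which encode repressors switched on by Notch, and mam, which encodes a coactivator of the pathway. The stretch of E(spl)m7-HLH had a strongly unequal pair, with 1248 and 140 in the pooled list, 688 and 270 in replicate 1 and 561 and 97.3 in replicate 2. The EGFR and Ras list had 2 of 20, the ligand gene spi and edl, which encodes a regulator of Ets factors, out of 9 with any summit. The Wingless list had 1 of 19, nkd, an inhibitor of the pathway, out of 5. The Dpp list had 0 of 18 and the Hedgehog list 0 of 12, where 2 and 4 genes had a summit of any kind.

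The list of ecdysone and other nuclear receptor genes had a stretch in 3 of 18, out of 6 with any summit. Hnf4 had signals of 1073 and 157, usp, which encodes the partner of the ecdysone receptor, had 267 and 194, and ftz-f1 had 266 and 266. At ftz-f1 the stronger of the nearly equal summits had no match in replicate 1. Cell cycle genes had a stretch in 3 of 20, out of 9: E2f1 and E2f2, which encode an activating and a repressing E2F factor, and Cdk4, the gene of a cyclin D kinase. The strongest summits of their stretches had signals of 342, 195 and 368. The one of the E2f2 stretch lay nearest to the start site of Mpp6.

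Among chromatin regulators, the Polycomb list had 1 of 15, ph-p, which encodes a subunit of Polycomb repressive complex 1, out of 4 with any summit. The ph-p stretch held 3 summits of similar height, with 1512, 1751 and 1340 in the pooled list. Replicate 1 had 825 and 846 for the first 2 and no match for the third, and replicate 2 had 671 for the first, none for the second and 750 for the third. Of the summits 199 bp apart, each replicate thus returned 1, in replicate 1 at 98 bp from the second and in replicate 2 at 5 bp from the third. The Trithorax and Brahma list had 0 of 16 at a start site, with 4 genes having a summit there.

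Among developmental regulators, the early patterning list had 0 of 21, with 1 gene having any summit, and the neuroblast and proneural list 0 of 19, with 5. Of 8 Hox genes Antp had a stretch, with signals of 224 and 201, and no other Hox gene had an optimal summit at a start site. With 1 stretch among these 3 lists, the counts are too small to set apart from the 4.93% of all protein-coding genes.

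Of the 22 stretches with more than 2 summits, 14 combined a pair at most 250 bp apart with a summit further off, 3 had close pairs alone and 5 had wide pairs alone. The single stretch of 4 lay in an intron of CG10543, with signals of 669, 214, 258 and 390 along the chromosome and spacings of 200, 587 and 305 bp. At NFAT, the fly gene of the NFAT transcription factor family, 3 summits had signals of 1504, 697 and 562 with spacings of 834 and 204 bp. In replicate 1 they had 853, 356 and 276, and in replicate 2 they had 663, 354 and 273, so the order held in both. Near CG7560 the 3 summits were 768 and 818 bp apart and close in height at the last 2, with 382, 683 and 624. At lncRNA:CR45668 the third summit, with 188, lay nearest to Act5C, a cytoplasmic actin gene.

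Along the chromosomes, the share of regions that were stretches went from 14.9% (12.9 to 17.1%) on the X to 19.3% (17.2 to 21.5%) on 3L. The small chromosome 4 had 2 among 11 regions. Per Mb there were 7.08 to 9.18 stretches on the large arms and 1.48 on chromosome 4.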

How the data were processed

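Per the deposited description files, the authors called regions with a control in each replicate and in the pooled reads, and kept those that passed their reproducibility step as the optimal list. For aligner, peak caller and threshold, the sources used here give no name or value (not given in the sources used here). Each region carries the authors' signal, 1 number on an unstated scale, the authors' -log10 q, which was not used, and the deposited summit offset. Fragments were 200 to 800 bp, per the labels. The lists hold no read counts, so depth is unknown, and intervals cover only the counting of regions.

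Optimal dm6 intervals on the 6 arms that overlapped by at least 1 bp were merged. Summits were placed against Ensembl release 115 (13945 protein-coding and 3951 non-coding genes, 23722 start sites), with sequence from RefSeq Release 6. A summit within 500 bp of a start site was a promoter summit; the others were placed in UTRs and exons first, then introns, then intergenic DNA. Weighted shares give single regions the spread of the stretches over 10 signal classes. Shares have 95% exact (Clopper-Pearson) intervals. No test was run, since 1 group has no contrast and regions are not replicates. Python 3.11.15, numpy 2.4.6, pandas 2.3.3, scipy 1.17.1 and matplotlib 3.10.9 were used, and merging was tested on simulated data.

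The members, the 14 gene lists and the comparisons were chosen with earlier results of these data known. Named genes are those at the 10 stretches with most summits, the 10 with the highest signal, the 5 widest, the 5 highest far from start sites, the tagged gene, and up to 3 members of each list. The genes at the edges of the overlap rule were chosen after their values were seen. Of the listed genes, calypso was not matched. Sequence was not printed for the stretches at Tina-1, CG1888 and Drat. Alternatives were each replicate alone, the stronger part of the list, other overlap rules, promoter, GC and match distances, build dm3 and weighting by signal.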

Additional observations from a re-analysis of the deposited data

How the results depend on the processing

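Each replicate's own list, limited to the size of the optimal list, gave 1090 to 1099 stretches, 2190 to 2211 intervals in them, a spacing of 203 bp, ratios of 0.510 to 0.539, promoter shares of 51.7 to 55.1% for stretches, 47.7 to 51.7% for strongest summits and 37.7 to 39.9% for single regions, divergent shares of 30.4 to 31.9% for stretches and 34.6 to 37.8% for single regions, and GC contents of 30.5 to 31.5% at strongest and 32.5 to 34% at single summits. In this section a stretch is at a promoter when any of its summits is, so several summits raise its share, which was 52.7% in the main setting. The 3592 intervals with the highest signal left 383 stretches with 775 intervals, a spacing of 204 bp and a ratio of 0.570. Promoter shares were then 55.9% for stretches, 49.6% for strongest summits and 45.2% for single regions, and divergent shares were 24.8 and 37.8%. Overlap of 50% of the shorter interval gave a ratio of 0.484, and joining intervals up to 100 bp apart gave a spacing of 204 bp. Promoters within 200 bp gave shares of 33.7% for stretches, 22.8% for strongest summits and 24.3% for single regions, so that strongest summits then fell below single ones, and divergent shares of 20.1 and 27.6%. Promoters within 1000 bp gave 61.9, 60.04 and 47.97%, and a divergent share of 35.1% for stretches. Weighting single regions by signal gave a promoter share of 46.8% and, chosen after seeing the data, a divergent share of 36.0% and a GC content of 32%. GC content was 29 and 30% in 100 bp and 35.25 and 37.5% in 400 bp. Matching replicates within 50 bp found 61.1% of stretches whole. Of 22 word shares, 20 moved beyond their interval within 50 bp of the summit. That narrower window lies inside the wider one, so a share cannot rise in it, and all 22 were lower. Genes with a stretch numbered 599 by nearest start site. Dm3 gave 1054 stretches. Apart from the word shares, the cause of these shifts was not tested. No paired analysis was possible because there was a single group.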

Other observations

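Some parts of the chromosomes held several stretches close together, and the places named here were chosen after their values were seen. The densest 50 kb held 7 stretches on 3R, around lncRNA:CR45642, lncRNA:CR45641, lncRNA:CR45643 and tara. Their strongest summits ran from 446 to 2052, and the highest lay 1252 bp upstream of lncRNA:CR45643, outside any gene. Between the first and the last of them lay 2 single regions. Another 5 windows of 50 kb held 6 stretches each, 3 on 2L, 1 on 2R and 1 on 3L, with 1 to 10 single regions between the first and the last. In the first of those on 2L, the stretches lay around Pgk, Bacc, HemK2 and Snx21, with strongest summits of 414 to 976. Pgk encodes the glycolytic enzyme phosphoglycerate kinase. By gene body, CG1677, over 124.7 kb, and shn, over 58.3 kb, held 5 stretches each, beside 9 and 11 single regions. Stretches within the CG1677 span had other genes, such as unc-119 and CBP, with the nearest start site. No gene of the Dpp list had a stretch at a start site, although shn encodes a zinc-finger factor of the Dpp pathway. The gene drn held 4 stretches in 22.8 kb, beside 2 single regions. B4 held 3 stretches and 0 single regions in 48.7 kb.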
